A study of Homo sapiens with 12 samples.

Results

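The genes described are keratins, vimentin and the linkers that hold their filaments, 10 of the 60676 gene rows in the count table. They were taken by matching gene identifiers to the symbols KRT7, KRT8, KRT18, KRT19, KRT20, KRT80, KRT81, VIM, PLEC and DSP. Each symbol matched 1 row, and all 10 passed the filter on low counts. The cells were A549, a widely used line from a human adenocarcinoma of the lung, and their RNA was read in 12 libraries, 3 for each of 4 groups. Cells of the first group overexpressed the long non-coding RNA LETS1 and were given TGF-β at 5 ng/mL for 4 h; those of the second overexpressed LETS1 and were given ligand buffer for the same time. The third carried the empty vector pCDH-EF1a-PURO (Co.vec) with the same TGF-β treatment, and the fourth carried Co.vec with buffer. All 4 groups had been transduced with lentivirus and kept in puromycin, so no untransduced cells stand beside them. The design describes the replicates as biological, without saying whether each was a separate transduction, so the p values measure the spread between these samples. No gene row carried the symbol LETS1, and the level of the transgene is not analysed here.

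Keratins form filaments as pairs of a type I chain (KRT18, KRT19, KRT20) and a type II chain (KRT7, KRT8, KRT80, KRT81), and the pair of KRT8 and KRT18 is typical of simple epithelia such as those lining the lung. Vimentin, the type III filament protein of mesenchymal cells, is also made by many epithelial cancer lines, and its gain is widely used as a sign of epithelial-mesenchymal transition, which TGF-β can induce. Plectin and desmoplakin are plakins, large linkers that tie filaments to hemidesmosomes and other structures or to desmosomes.

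Each library held 19705135 to 20351043 fragments in genes. Levels are given as counts per 1000000 fragments in genes (CPM) after TMM scaling of library sizes, and a fold change is on the log2 scale from a model of the counts of all 12 libraries. A gene was called higher or lower where its adjusted p, from edgeR's quasi-likelihood test with Benjamini-Hochberg adjustment over 16192 genes, was under 0.05. The epithelial identity of the line was read from 7 markers. CDH1 averaged 74.4 ± 2.73 CPM in LETS1 cells with TGF-β, 97.6 ± 0.943 in LETS1 cells in buffer, 71.3 ± 4.39 in Co.vec cells with TGF-β and 95.9 ± 3.72 in Co.vec cells in buffer (SD, n = 3 each). EPCAM, CLDN4 and ELF3 also reached 1 CPM in every group, whereas CLDN7, ESRP1 and GRHL2 stayed below 1 CPM in all 4. Of 18 markers of other cell types, 3 reached a mean of 1 CPM in LETS1 cells with TGF-β, 4 in LETS1 cells in buffer, and 2 in each Co.vec group. Their summed level ran from 149.6 to 166 CPM in LETS1 cells with TGF-β, 28.95 to 34.3 CPM in LETS1 cells in buffer, 139.9 to 147 CPM in Co.vec cells with TGF-β and 26.0 to 29.7 CPM in Co.vec cells in buffer. COL1A1, a fibrillar collagen gene, had means of 142, 19.9, 126 and 13.3 CPM in the same order of groups, and TP63, a transcription factor of basal cells, had means of 12.2, 7.73, 15.3 and 12.6 CPM. The part of these markers in the results that follow was not tested.

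Between LETS1 and Co.vec cells 4 keratins were lower in LETS1 cells under both treatments, and between TGF-β and buffer most of the 10 genes were higher with TGF-β. KRT8, KRT18, KRT19 and KRT20 were the 4, by log2 fold changes of -0.26 to -2.75. VIM was higher in LETS1 cells with TGF-β, and KRT7 and KRT80 were higher in LETS1 cells in buffer. With TGF-β, KRT7, KRT8, KRT18, KRT80, KRT81, VIM and PLEC rose in both LETS1 and Co.vec cells, though the Co.vec calls of KRT18 and KRT81 were lost without some libraries. The comparisons of LETS1 with Co.vec share no library between treatments, nor do the comparisons of TGF-β with buffer between cell populations, but each LETS1 comparison shares a group of libraries with each TGF-β comparison.

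In counts of calls, 1 member was higher and 4 were lower in LETS1 than in Co.vec cells with TGF-β, where 7.58% of all genes tested were higher and 6.5% lower. In buffer, 2 members were higher and 6 lower in LETS1 than in Co.vec cells, against 8.57% higher and 6.56% lower over all genes. In LETS1 cells, 7 were higher and 0 lower with TGF-β than in buffer by edgeR's quasi-likelihood test, where 19.7% of all genes were higher and 19.1% lower. DESeq2 also called 0 lower there, and 1 member, KRT20, had an unadjusted p under 0.05 in that direction. In Co.vec cells, 7 members were higher and 1 lower with TGF-β than in buffer, against 21.1% and 18.6% of all genes. The median log2 fold change of the 10 members was -0.07 for LETS1 over Co.vec with TGF-β, -0.16 for LETS1 over Co.vec in buffer, 0.27 for TGF-β in LETS1 cells and 0.17 for TGF-β in Co.vec cells, while the median over all genes lay between -0.02 and 0.01 in these 4 comparisons. The members were chosen with earlier results known, so these counts describe them and carry no test of the list.

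**Figure D1:**
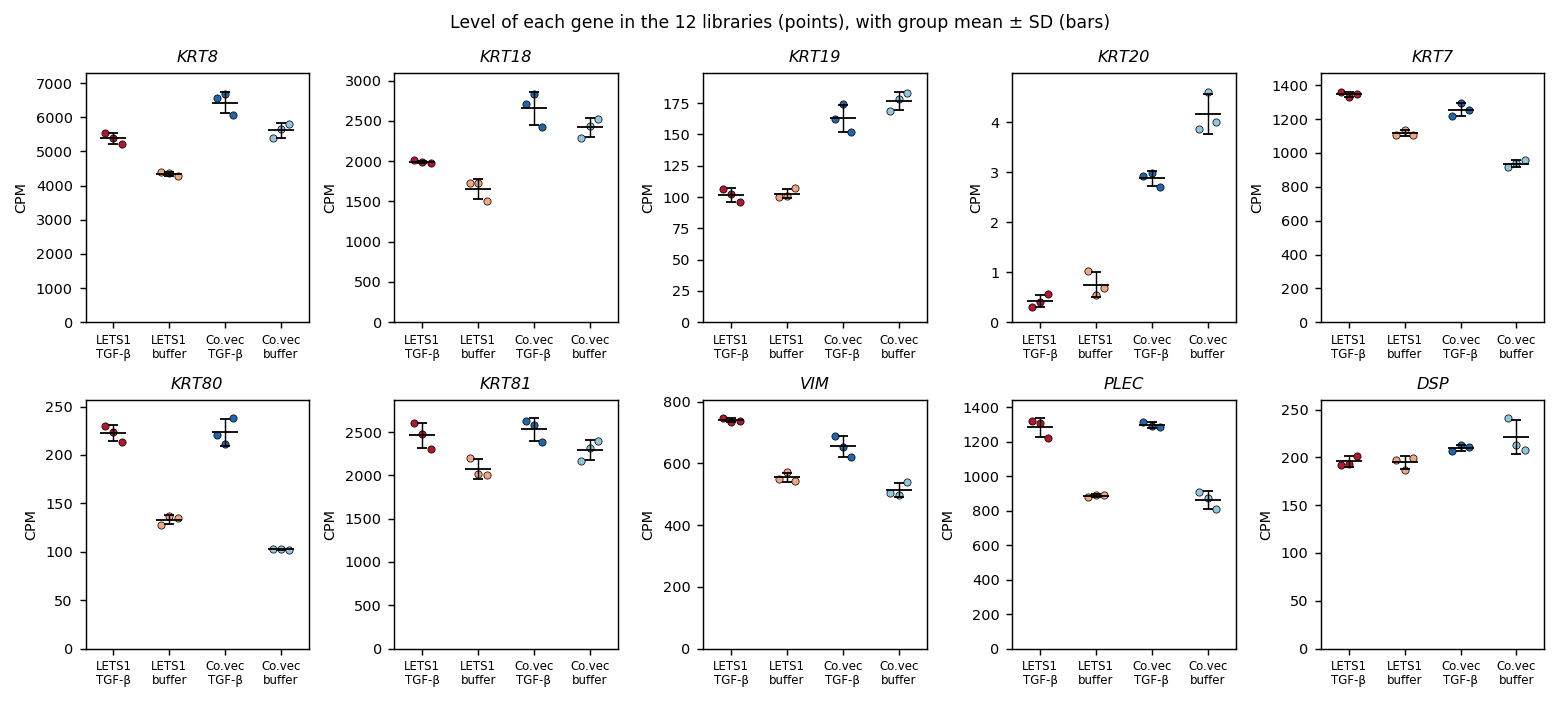
Level of each of the 10 genes in CPM (vertical axis, linear from 0) in every library, with 3 points per group and the group mean ± SD as bars; groups run from LETS1 with TGF-β at the left to Co.vec in buffer at the right. KRT19 and KRT20 stand lower in both LETS1 groups, and KRT80 stands higher in both TGF-β groups.

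KRT8, the type II partner in the simple-epithelial pair, was the most abundant of the 10 genes per kilobase of transcript in all 4 groups. In LETS1 cells it stood at 5533, 5404 and 5224 CPM with TGF-β, against 4385, 4358 and 4277 CPM in buffer. Co.vec cells had 6554, 6672 and 6073 CPM with TGF-β, against 5382, 5666 and 5796 CPM in buffer. LETS1 libraries lay below Co.vec libraries under either treatment with no overlap, and TGF-β libraries lay above buffer libraries in both cell populations. The log2 fold change of LETS1 over Co.vec was -0.26 ± 0.043 (SE) with TGF-β, with an adjusted p of 2.33e-05 by edgeR, and -0.37 ± 0.043 in buffer, with an adjusted p of 1.10e-08. For TGF-β over buffer it was 0.31 ± 0.043 in LETS1 cells and 0.20 ± 0.043 in Co.vec cells. These are bulk counts, in which fewer cells with a transcript and less of it per cell cannot be told apart.

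The GENCODE 29 annotation (GRCh38) places KRT8 on the minus strand of chromosome 12, from 52897187 to 52949954, and KRT18 on the plus strand from 52948871 to 52952901. Their exons share 525 bases on opposite strands, which is 7.63% of the exon bases of KRT8 and 16.3% of those of KRT18. Whether counting used strand is not given in the sources used here, so fragments from that stretch could have been left out as ambiguous or could have reached either gene. KRT8 is also one of 4 members with an entry in the RefSeq promoter table, along with KRT20, VIM and DSP. The promoters of KRT8, KRT20 and DSP are printed with the genes, since these are the entries whose gene fell with LETS1 in buffer. In each, 3 motifs were searched on both strands, the SMAD-binding letters CAGAC, the AP-1 letters TGANTCA and the E-box letters CACCTG. Matches are in capitals, an E-box on the other strand reading CAGGTG. Of 35116 promoters of the same length, 45.3% hold the first, 7.71% the second and 20.6% the third. The KRT8 promoter, read 5′ to 3′ on the minus strand at chr12:52926420-52926719 (GRCh38.p14), lies inside the annotated span of the gene and holds 1 CAGAC at position -137 from the start:
KRT8: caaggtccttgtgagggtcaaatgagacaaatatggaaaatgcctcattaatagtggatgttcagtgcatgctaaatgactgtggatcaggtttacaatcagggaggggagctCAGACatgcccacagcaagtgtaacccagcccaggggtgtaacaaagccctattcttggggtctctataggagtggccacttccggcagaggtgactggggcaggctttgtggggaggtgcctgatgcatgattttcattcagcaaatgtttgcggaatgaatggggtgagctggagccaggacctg
A match of 5 or 6 letters in a window of 300 bases is a description of the sequence, and binding was not measured. Which start of KRT8 these cells used was not determined.

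Processed pseudogenes are copies of a transcript put back into the genome, and KRT8 and KRT18 have many. The count table held 123 pseudogene rows of the keratin members, of which 72 had any count. The 51 rows of KRT8 summed to 398 to 526 counts per library, which is 0.358% to 0.465% of the KRT8 count. The 67 rows of KRT18 summed to 48 to 86 counts per library, or 0.121% to 0.207% of the KRT18 count, and the 5 rows of KRT19 summed to 0 or 1. KRT7, KRT20, KRT80 and KRT81 had 0 such rows by name. KRT87P, a keratin pseudogene named otherwise, shares 32 exon bases with KRT7 on the opposite strand. It had 74 to 114 counts per library and passed in none of the 5 contrasts. Adding the rows of KRT8, KRT18 and KRT19 to their parents changed no call of any member, but sums this small could hardly have changed one. Fragments not uniquely aligned lie outside these rows and were not examined.

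KRT8P12, on chromosome 3 from 160565447 to 160569248, had a mean of 9.36 ± 0.540 CPM in LETS1 cells with TGF-β, 9.56 ± 0.822 in LETS1 cells in buffer, 10.0 ± 0.522 in Co.vec cells with TGF-β and 10.1 ± 0.393 in Co.vec cells in buffer (SD, n = 3 each). It passed in none of the 5 contrasts of the edgeR test, with log2 fold changes from -0.10 to -0.01. KRT8P3, a pseudogene row of similar count, had a mean of 9.45 ± 1.32 CPM in LETS1 cells with TGF-β, 6.91 ± 0.0477 in LETS1 cells in buffer, 10.6 ± 1.27 in Co.vec cells with TGF-β and 8.28 ± 1.63 in Co.vec cells in buffer (SD, n = 3 each). It rose with TGF-β by 0.45 ± 0.123 on the log2 scale in LETS1 cells, adjusted p 0.00343 by edgeR, and by 0.36 ± 0.117 in Co.vec cells, adjusted p 0.0135, where the groups overlapped. The call in Co.vec cells was lost without Co.vec buffer replicate 1 (0.22, adjusted p 0.150) or Co.vec TGF-β replicate 3 (0.0784). For LETS1 over Co.vec it had -0.17 ± 0.115 with TGF-β and -0.26 ± 0.126 in buffer, neither of which passed. Over 1385 aligned bases of KRT8P12, 90.5% were identical to the KRT8 coding sequence, and the longest identical run was 53 bases. KRT8P3 was not aligned to KRT8, and whether its counts include fragments of KRT8 was not tested.

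KRT18, the type I partner of KRT8, showed the same directions. In LETS1 cells it had 2010, 1986 and 1978 CPM with TGF-β, against 1734, 1725 and 1508 CPM in buffer. Co.vec libraries were at 2711, 2830 and 2424 CPM with TGF-β, against 2292, 2441 and 2524 CPM in buffer. All LETS1 libraries lay below all Co.vec libraries, whatever the treatment, while TGF-β and buffer libraries overlapped in Co.vec cells. The log2 fold change of LETS1 over Co.vec was -0.41 ± 0.052 (SE) with TGF-β and -0.55 ± 0.052 in buffer, with adjusted p values of 3.59e-07 and 1.00e-09 by edgeR. TGF-β raised KRT18 by 0.27 ± 0.052 on the log2 scale in LETS1 cells, with an adjusted p of 0.000104. In Co.vec cells the change was 0.13 ± 0.052 with an adjusted p of 0.0398, and that call was lost without Co.vec buffer replicate 1 (adjusted p 0.178) or 2 (0.0588), without Co.vec TGF-β replicate 1 (0.0958) or 2 (0.180), and with DESeq2 (0.0503).

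The balance of the pair can be read within each library as the ratio of the KRT8 count to the KRT18 count. The KRT8 count was 2.75, 2.72 and 2.64 times the KRT18 count in LETS1 cells with TGF-β, and 2.53, 2.53 and 2.84 times in LETS1 cells in buffer. The ratio in Co.vec cells was 2.42, 2.36 and 2.51 with TGF-β, and 2.35, 2.32 and 2.30 in buffer. All 6 LETS1 libraries lay above all 6 Co.vec libraries, without a test of the ratio itself and with the 525 shared exon bases unresolved. The 7 keratin members together took 1.12% of gene counts on average in LETS1 cells with TGF-β, 0.958% in LETS1 cells in buffer, 1.31% in Co.vec cells with TGF-β and 1.18% in Co.vec cells in buffer. KRT8 and KRT18 made up 64.1%, 63.6%, 68.5% and 69.6% of those keratin counts in the same order of groups.

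**Figure D2:**
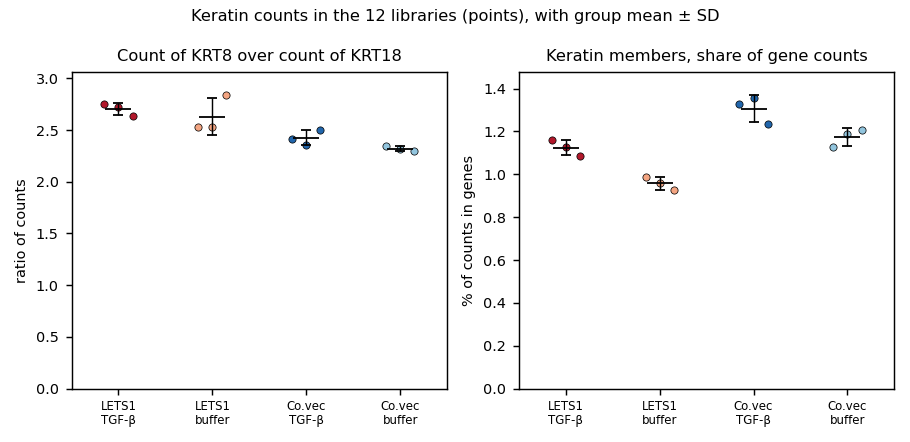
Left, count of KRT8 over count of KRT18 in each library; right, counts of the 7 keratin members as a percentage of all counts in genes; points are libraries and bars the group mean ± SD (n = 3), on axes that start at 0. In the left panel the LETS1 libraries lie at 2.53 to 2.84 and the Co.vec libraries at 2.30 to 2.51; in the right panel the LETS1 groups average 1.12% and 0.958%, and the Co.vec groups 1.31% and 1.18%.

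KRT19, a small type I keratin of ducts and airways on the minus strand of chromosome 17 from 41523617 to 41528308, had the clearest split by vector among the abundant members. It was at 106, 102 and 95.6 CPM in LETS1 cells with TGF-β and at 100.2, 100.6 and 107 CPM in LETS1 cells in buffer. Co.vec cells had 163, 174 and 152 CPM with TGF-β and 169, 178 and 183 CPM in buffer. The highest LETS1 library was well under the lowest Co.vec library. LETS1 over Co.vec gave a log2 fold change of -0.68 ± 0.051 (SE) with TGF-β, adjusted p 1.49e-13 by edgeR, and of -0.79 ± 0.050 in buffer, adjusted p 1.44e-15. TGF-β over buffer gave -0.02 in LETS1 cells (adjusted p 0.846) and -0.12 in Co.vec cells (adjusted p 0.0516), neither of which passed. The value in Co.vec cells passed without Co.vec buffer replicate 1 (0.0192) or without Co.vec TGF-β replicate 2 (0.0153), and was -0.07 with an adjusted p of 0.342 without Co.vec TGF-β replicate 3. Over the 12 fits with a library left out it ran from -0.16 to -0.07.

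The genes whose levels followed KRT19 most closely over the 12 libraries were TSPAN13, TCN1 and SLC7A7. Likeness was the root mean square difference of log2 CPM after each gene was centred on its own mean, and it came to 0.089, 0.096 and 0.104 for these genes, against a spread of 0.374 of KRT19 about its own mean.

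KRT20, a type I keratin best known from intestinal and urothelial epithelium, was the scarcest member and had the largest relative difference. Its raw counts were 6, 8 and 11 in LETS1 cells with TGF-β and 21, 11 and 14 in LETS1 cells in buffer. Co.vec cells had 57, 58 and 54 counts with TGF-β and 78, 93 and 80 in buffer. As CPM the means were 0.423 ± 0.127, 0.750 ± 0.249, 2.88 ± 0.147 and 4.16 ± 0.399 in that order of groups (SD, n = 3 each). No LETS1 library reached the lowest Co.vec library. The log2 fold change of LETS1 over Co.vec was -2.75 ± 0.259 (SE) with TGF-β, with an adjusted p of 9.47e-11 by edgeR, and -2.46 ± 0.210 in buffer, with an adjusted p of 5.39e-12.

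For TGF-β over buffer in LETS1 cells, KRT20 had a log2 value of -0.82 ± 0.345 with an adjusted p of 0.0579 by edgeR, and it passed without LETS1 buffer replicate 2 (0.0313) or without LETS1 TGF-β replicate 3 (0.0391). Without LETS1 buffer replicate 1 it was -0.53 with an adjusted p of 0.331, and over the 12 fits with a library left out it ran from -1.06 to -0.53. In Co.vec cells KRT20 fell with TGF-β by 0.53 ± 0.160 on the log2 scale, with an adjusted p of 0.00735, which became 0.0598 without Co.vec buffer replicate 2. At 6 to 21 counts per LETS1 library, counting error alone is a large share of each value. The genes closest to KRT20 over the 12 libraries were NTS, CX3CL1 and MUC5AC, with root mean square log2 differences of 0.333, 0.367 and 0.378, against a spread of 1.28 of KRT20 about its own mean.

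The gene lies on the minus strand of chromosome 17 from 40875941 to 40885227. Its RefSeq promoter (GRCh38.p14, minus strand, chr17:40885193-40885492), printed as the member with the largest fall, holds 1 E-box match at position 33 after the start, in capitals, and neither of the other motifs on either strand:
KRT20: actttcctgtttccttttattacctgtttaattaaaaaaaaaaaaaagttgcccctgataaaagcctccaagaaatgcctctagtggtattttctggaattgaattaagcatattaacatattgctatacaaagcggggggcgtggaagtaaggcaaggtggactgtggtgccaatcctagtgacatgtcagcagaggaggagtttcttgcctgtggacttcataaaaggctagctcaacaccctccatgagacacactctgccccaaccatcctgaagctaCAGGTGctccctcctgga

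KRT7, a type II keratin of simple and glandular epithelia on the plus strand of chromosome 12 from 52232520 to 52252186, moved the other way between vectors. LETS1 cells had 1359, 1328 and 1350 CPM with TGF-β, against 1105, 1137 and 1105 CPM in buffer. Co.vec cells had 1218, 1297 and 1254 CPM with TGF-β, against 915, 938 and 959.8 CPM in buffer. No group overlapped another, though LETS1 and Co.vec cells with TGF-β came close. The change of LETS1 over Co.vec was 0.10 ± 0.040 (SE) on the log2 scale with TGF-β, adjusted p 0.0974 by edgeR, which did not pass although DESeq2 gave 0.0311. In buffer it was 0.25 ± 0.040, adjusted p 7.81e-06. TGF-β over buffer gave 0.27 ± 0.040 in LETS1 cells and 0.42 ± 0.040 in Co.vec cells, with adjusted p values of 6.05e-07 and 2.04e-11. The difference between those responses was -0.15 with an adjusted p of 0.384.

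KRT7-AS, an antisense RNA gene on the opposite strand within KRT7 at chromosome 12 from 52245048 to 52247448, shares 282 exon bases with it. Its mean was 26.8 ± 1.06 CPM in LETS1 cells with TGF-β, 15.9 ± 2.101 in LETS1 cells in buffer, 28.7 ± 0.991 in Co.vec cells with TGF-β and 9.69 ± 1.96 in Co.vec cells in buffer (SD, n = 3 each). TGF-β raised it by 0.75 ± 0.0897 on the log2 scale in LETS1 cells and by 1.57 ± 0.0967 in Co.vec cells, and the difference between these responses, -0.81 ± 0.134, had an adjusted p of 0.000475 by edgeR. Without strand, fragments of KRT7 and KRT7-AS in shared bases cannot be told apart.

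KRT80, a type II keratin placed near desmosomes and the cell edge in epithelia, lies on the minus strand of chromosome 12 from 52168996 to 52192000 and had the largest rise with TGF-β of the 10 genes. In LETS1 cells it had 229.6, 224 and 214 CPM with TGF-β, against 128, 137 and 134 CPM in buffer. Co.vec libraries were at 221, 211 and 238 CPM with TGF-β, against 102.6, 102.6 and 102.1 CPM in buffer. The buffer groups were apart, with LETS1 above Co.vec, and the TGF-β groups overlapped. TGF-β over buffer gave a log2 fold change of 0.74 ± 0.046 (SE) in LETS1 cells and 1.12 ± 0.047 in Co.vec cells, with adjusted p values of 1.20e-16 and 4.31e-22 by edgeR. Between vectors it was -0.01 with TGF-β, adjusted p 0.953, and 0.38 ± 0.048 in buffer, adjusted p 9.03e-08.

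The TGF-β response of KRT80 was smaller in LETS1 cells than in Co.vec cells by 0.38 ± 0.066 on the log2 scale, with an adjusted p of 0.000559 by edgeR. It was the 1 member of 10 whose response differed between the cell populations, where 0.679% of all genes tested did so in either direction. For the other 9 members the difference ran from -0.29 to 0.13, with adjusted p values of 0.384 or more. A p that misses the threshold does not show that those responses were alike.

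KRT81 is a hair-type keratin, made in hair follicles and also in some carcinoma lines, and was among the 3 most abundant members per kilobase. LETS1 libraries were at 2601, 2479 and 2305 CPM with TGF-β, against 2205, 2016 and 2003 CPM in buffer. Co.vec cells had 2633, 2581 and 2384 CPM with TGF-β, against 2163, 2318 and 2395 CPM in buffer. Groups overlapped in each comparison but that of TGF-β with buffer in LETS1 cells. There the log2 fold change was 0.25 ± 0.049 (SE), with an adjusted p of 8.07e-05 by edgeR. In Co.vec cells it was 0.14 ± 0.049, adjusted p 0.0169, and it no longer passed without Co.vec buffer replicate 1 (0.112) or Co.vec TGF-β replicate 1 (0.0759).

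LETS1 over Co.vec gave KRT81 a log2 fold change of -0.04 with TGF-β, adjusted p 0.653 by edgeR, and of -0.14 ± 0.049 in buffer, adjusted p 0.0401. The call in buffer was lost without Co.vec buffer replicate 2 (0.130) or 3 (0.205), without LETS1 buffer replicate 2 (0.161) or 3 (0.185), and without LETS1 TGF-β replicate 2 (0.0563).

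KRT81 lies on the minus strand of chromosome 12 from 52285913 to 52291534, inside the span of KRT86 on the plus strand, with 0 shared exon bases. Its coding sequence is 93.9% identical to that of KRT86 over 1441 aligned bases, with an identical run of 605 bases, and 93.3% identical to that of KRT83 over 1464 aligned bases, with an identical run of 95. Fragments inside such runs could belong to either gene, so the values of these 3 genes are uncertain. KRT86 and KRT83 had group means of 2.14 to 3.44 CPM and 1.60 to 2.39 CPM, far under KRT81. Adding both to KRT81 changed none of its calls, but rows this small could hardly have changed one. Fragments not uniquely aligned lie outside these rows and were not examined. The middle 60 coding bases of KRT81 (GENCODE 29, minus strand, chr12:52288097-52288368) and the aligned bases of KRT86 (plus strand, chr12:52305020-52305291) and KRT83 (minus strand, chr12:52316972-52317688) show how little separates them. Each stretch crosses an intron, so the coordinates span more than the letters, and capitals mark letters that differ from KRT81:
KRT81: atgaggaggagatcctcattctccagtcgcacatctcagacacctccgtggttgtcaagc
KRT86: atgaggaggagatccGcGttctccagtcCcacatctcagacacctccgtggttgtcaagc
KRT83: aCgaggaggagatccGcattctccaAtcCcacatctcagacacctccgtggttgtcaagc

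VIM, the gene of vimentin, was higher with TGF-β in both cell populations. LETS1 libraries were at 747, 735 and 737 CPM with TGF-β, against 550.1, 571 and 542 CPM in buffer. Co.vec libraries were at 688, 654 and 621.5 CPM with TGF-β, against 503.5, 497 and 539 CPM in buffer. None of the 4 groups overlapped another. TGF-β over buffer gave a log2 fold change of 0.42 ± 0.043 (SE) in LETS1 cells and 0.35 ± 0.043 in Co.vec cells, with adjusted p values of 1.85e-10 and 1.16e-08 by edgeR. For LETS1 over Co.vec it was 0.18 ± 0.043 with TGF-β, adjusted p 0.00311, and 0.11 in buffer, adjusted p 0.0785, which passed without Co.vec buffer replicate 3 (0.0263).

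VIM lies on the plus strand of chromosome 10 from 17228259 to 17237593, and 641 of its exon bases are shared with VIM-AS1 on the other strand. That row had 21 to 55 counts per library. The genes nearest to VIM over the 12 libraries were KIF3C, DDB2 and MED10, with root mean square log2 differences of 0.0498, 0.0507 and 0.0507, against a spread of 0.210 of VIM about its own mean. Its RefSeq promoter held none of the 3 motifs and is not printed.

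PLEC, the gene of plectin, a cytolinker that binds keratin and vimentin filaments and anchors keratins at hemidesmosomes, rose with TGF-β and passed in neither comparison of vectors. In LETS1 cells it had 1323, 1308 and 1223 CPM with TGF-β, against 879.5, 894 and 889.6 CPM in buffer. In Co.vec cells it had 1314, 1294 and 1285 CPM with TGF-β, against 912, 873 and 809 CPM in buffer. TGF-β libraries were far above buffer libraries in both populations, and LETS1 and Co.vec libraries overlapped under either treatment. TGF-β over buffer gave a log2 fold change of 0.53 ± 0.043 (SE) in LETS1 cells and 0.59 ± 0.043 in Co.vec cells, with adjusted p values of 2.75e-13 and 1.89e-14 by edgeR. For LETS1 over Co.vec it was -0.01 with TGF-β and 0.04 in buffer, with adjusted p values of 0.882 and 0.641.

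DSP, the gene of desmoplakin, which ties keratins to desmosomes, lies on the plus strand of chromosome 6 from 7541575 to 7586717 and differed little between groups. In LETS1 cells it stood at 192, 194 and 202 CPM with TGF-β, against 198, 187 and 199.8 CPM in buffer. In Co.vec cells it stood at 206, 213 and 210.4 CPM with TGF-β, against 241, 213 and 208 CPM in buffer. LETS1 libraries lay under Co.vec libraries at each treatment by a narrow margin, and TGF-β and buffer libraries overlapped. LETS1 over Co.vec gave -0.10 on the log2 scale with TGF-β, adjusted p 0.168 by edgeR, and -0.18 ± 0.047 (SE) in buffer, adjusted p 0.00528. The value in buffer was -0.12, adjusted p 0.0988, without Co.vec buffer replicate 1, and the adjusted p was 0.0513 without LETS1 buffer replicate 2. TGF-β over buffer gave 0.01 in LETS1 cells (0.919) and -0.07 in Co.vec cells (0.224).

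The RefSeq promoter of DSP (GRCh38.p14, plus strand, chr6:7541421-7541720) has its start inside the annotated span of the gene, and its match at -85 also lies there. Which start of DSP these cells used was not determined. The promoter holds the E-box letters at positions -178 and -85, both read as CAGGTG and set in capitals, and neither of the other motifs:
DSP: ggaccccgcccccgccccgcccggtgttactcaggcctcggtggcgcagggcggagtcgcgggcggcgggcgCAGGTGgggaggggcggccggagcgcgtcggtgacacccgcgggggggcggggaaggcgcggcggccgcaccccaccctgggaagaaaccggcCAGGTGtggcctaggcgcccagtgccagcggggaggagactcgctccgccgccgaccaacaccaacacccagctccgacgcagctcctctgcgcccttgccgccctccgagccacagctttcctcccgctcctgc

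**Figure D3:**
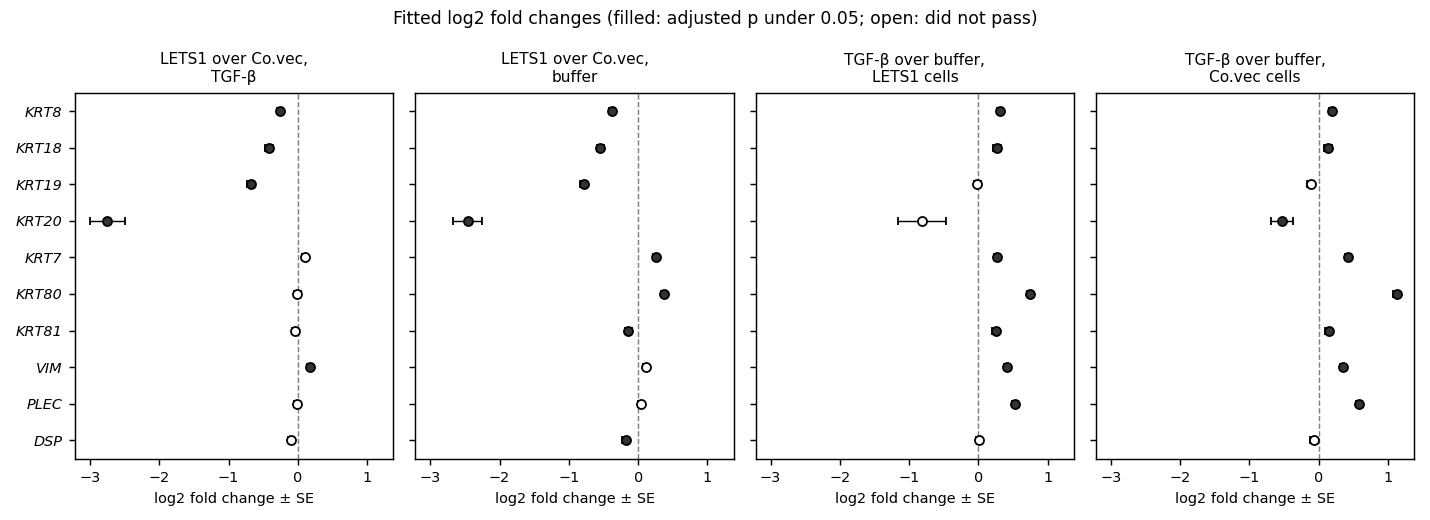
Fitted log2 fold change ± SE (horizontal axis, the same in each panel) of the 10 genes in the 4 comparisons, with filled points where the adjusted p was under 0.05. KRT20 at -2.75 and -2.46 lies farthest left in the LETS1 comparisons, and KRT80 at 0.74 and 1.12 lies farthest right in the TGF-β comparisons.

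Levels of different genes were set in order as CPM per kilobase of the principal GENCODE 29 transcript. In Co.vec cells in buffer the means were 2641 for KRT8, 1549 for KRT18, 1188 for KRT81, 534 for KRT7, 127 for KRT19, 26.6 for KRT80 and 2.39 for KRT20. In both Co.vec groups KRT18 stood above KRT81 without overlap. In both LETS1 groups KRT18 and KRT81 overlapped, with means of 1275 and 1276 with TGF-β, and of 1060 and 1075 in buffer. VIM came after KRT7 in every group, and DSP between KRT80 and KRT20. PLEC stood below KRT19 in both Co.vec groups and in LETS1 cells in buffer, without overlap. In LETS1 cells with TGF-β it stood above KRT19, with means of 84.3 and 73.0.

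The gene lists below overlap, and calls of KRT14, TP63 and ELF3 are counted in more than a single list. Counts for the lists can be set beside the shares of all genes tested. For LETS1 over Co.vec these were 7.58% higher and 6.5% lower with TGF-β, and 8.57% and 6.56% in buffer. For TGF-β over buffer they were 19.7% higher and 19.1% lower in LETS1 cells, and 21.1% and 18.6% in Co.vec cells. Other keratins were read from a list of 33, of which 10 passed the filter on low counts. Relative to Co.vec cells, 0 were higher and 3 lower in LETS1 cells with TGF-β, and 0 higher and 3 lower in buffer, by edgeR; DESeq2 also called 0 higher, and 0 had an unadjusted p under 0.05 in the higher direction. The 3 were KRT4, a keratin of stratified mucosa, KRT15, a basal keratin, and KRT10, a keratin of differentiated epidermis, named after its value was seen. KRT4 averaged 0.422 ± 0.144 CPM in LETS1 cells with TGF-β, against 1.99 ± 0.0563 in Co.vec cells with TGF-β, and 0.489 ± 0.195 CPM in LETS1 cells in buffer, against 1.74 ± 0.616 in Co.vec cells in buffer (SD, n = 3 each). Its log2 fold change was -2.22 ± 0.314 with TGF-β and -1.82 ± 0.308 in buffer. KRT15 had -0.71 ± 0.198 with TGF-β and -1.15 ± 0.211 in buffer, and KRT10 had -0.28 ± 0.0721 and -0.41 ± 0.0709. With TGF-β, KRT15 did not pass without Co.vec TGF-β replicate 1 (adjusted p 0.112) or LETS1 TGF-β replicate 3 (0.0745), and KRT10 did not without Co.vec TGF-β replicate 1 (0.0652), which left 1 of the 3 calls.

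With TGF-β relative to buffer, 4 of those 10 keratins were higher and 1 lower in LETS1 cells, and 4 were higher and 0 lower in Co.vec cells. DESeq2 called 0 lower in either population, and in Co.vec cells 0 had an unadjusted p under 0.05 in the lower direction. KRT16, KRT17 and KRT6A, keratins that skin makes under stress and in wounds, rose in both. KRT16 averaged 5.11 ± 0.503 CPM with TGF-β in LETS1 cells, against 0.962 ± 0.277 in buffer, and 5.37 ± 1.09 CPM with TGF-β in Co.vec cells, against 1.37 ± 0.267 in buffer (SD, n = 3 each). Its log2 fold change was 2.40 ± 0.203 in LETS1 cells and 1.96 ± 0.187 in Co.vec cells. KRT17, named after its values were seen, had 1.79 ± 0.141 in LETS1 cells and 1.63 ± 0.140 in Co.vec cells, and KRT6A had 1.83 ± 0.478 and 2.27 ± 0.651, at group means of 1.12 CPM or less. These keratins have near-identical relatives and pseudogenes, so values at such low counts are uncertain. The fourth was KRT14 in LETS1 cells (2.21 ± 0.436), a basal keratin under 1 CPM in each group, and KRT86 in Co.vec cells (0.68 ± 0.187). KRT222 fell by 0.81 ± 0.283 in LETS1 cells, a call that was lost without LETS1 buffer replicate 2 (adjusted p 0.166), LETS1 TGF-β replicate 2 (0.0921) or 3 (0.0574), and with DESeq2 (0.0634). The median of the 10 was -0.18 for LETS1 over Co.vec with TGF-β, -0.26 for LETS1 over Co.vec in buffer, 0.53 for TGF-β in LETS1 cells and 0.39 for TGF-β in Co.vec cells.

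Of 14 other intermediate filament genes, 9 were tested. Relative to Co.vec cells, 2 were higher and 1 lower in LETS1 cells with TGF-β, and 2 higher and 2 lower in buffer. With TGF-β relative to buffer, 1 was higher and 3 lower in LETS1 cells, and 1 higher and 2 lower in Co.vec cells. These small counts were unstable: leaving out a library gave 0 to 3 where 1 to 3 had been called, and without Co.vec buffer replicate 2 the 2 lower in LETS1 cells in buffer became 0. NEFL, the light neurofilament chain of neurons, averaged 23.8 ± 1.48 CPM in LETS1 cells with TGF-β, against 8.68 ± 0.528 in Co.vec cells with TGF-β, and 32.9 ± 0.265 CPM in LETS1 cells in buffer, against 12.8 ± 0.388 in Co.vec cells in buffer (SD, n = 3 each). Its log2 fold change for LETS1 over Co.vec was 1.46 ± 0.0803 with TGF-β and 1.36 ± 0.0716 in buffer. With TGF-β it fell by 0.47 ± 0.0656 in LETS1 cells and by 0.57 ± 0.0879 in Co.vec cells. INA, another neuronal filament gene, had -0.33 ± 0.0556 for LETS1 with TGF-β, and -0.21 ± 0.0549 in buffer, where it did not pass without Co.vec buffer replicate 2 (0.0579).

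Desmosome and plakin genes other than PLEC and DSP numbered 18, with 12 tested. Against Co.vec cells, 0 were higher and 5 lower in LETS1 cells with TGF-β, and 0 higher and 4 lower in buffer; DESeq2 also called 0 higher, and 0 had an unadjusted p under 0.05 in the higher direction. With TGF-β against buffer, 6 were higher and 3 lower in LETS1 cells, and 7 higher and 4 lower in Co.vec cells. JUP, the gene of plakoglobin, which binds desmosomal cadherins, averaged 718 ± 39.0 CPM in LETS1 cells with TGF-β, 386 ± 23.9 in LETS1 cells in buffer, 869 ± 27.9 in Co.vec cells with TGF-β and 497 ± 18.6 in Co.vec cells in buffer (SD, n = 3 each). LETS1 over Co.vec gave JUP -0.28 ± 0.0460 with TGF-β and -0.37 ± 0.0467 in buffer, and TGF-β gave 0.90 ± 0.0467 in LETS1 cells and 0.81 ± 0.0464 in Co.vec cells. EVPL, the gene of envoplakin, had -0.37 ± 0.0545 for LETS1 over Co.vec with TGF-β and -0.22 ± 0.0569 in buffer. PKP2, the gene of plakophilin 2, fell with TGF-β by 0.62 ± 0.0867 in LETS1 cells and by 0.71 ± 0.0851 in Co.vec cells, and PPL, the gene of periplakin, fell by 0.67 ± 0.0862 in LETS1 cells and by 0.49 ± 0.0817 in Co.vec cells. DSC2, a desmosomal cadherin gene, rose by 0.82 ± 0.127 in LETS1 cells and by 0.52 ± 0.122 in Co.vec cells. The list median was -0.15 for LETS1 over Co.vec with TGF-β, -0.14 in buffer, 0.10 for TGF-β in LETS1 cells and 0.16 for TGF-β in Co.vec cells.

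All 7 hemidesmosome genes were tested, the structure that plectin links to keratins at the base of epithelial cells. Against Co.vec cells, 1 was higher and 3 lower in LETS1 cells with TGF-β, and 1 higher and 4 lower in buffer. Among those lower in buffer was COL17A1 (-0.67 ± 0.210). That call was lost without Co.vec buffer replicate 1 (adjusted p 0.142 by edgeR), LETS1 buffer replicate 2 (0.0987) or 3 (0.165), and with DESeq2 (0.0905). With TGF-β against buffer, 5 were higher and 1 lower in each population; the 1 lower in Co.vec cells, COL17A1 (-0.67 ± 0.212), was lost without Co.vec buffer replicate 1 (adjusted p 0.0759) or Co.vec TGF-β replicate 3 (0.0695). ITGB4, the integrin β4 gene whose product binds plectin, averaged 584 ± 24.7 CPM in LETS1 cells with TGF-β, 355 ± 11.4 in LETS1 cells in buffer, 848 ± 34.6 in Co.vec cells with TGF-β and 476 ± 14.8 in Co.vec cells in buffer (SD, n = 3 each). Its change for LETS1 over Co.vec was -0.54 ± 0.0431 with TGF-β and -0.42 ± 0.0437 in buffer, and TGF-β gave 0.72 ± 0.0437 in LETS1 cells and 0.83 ± 0.0434 in Co.vec cells. Its partner ITGA6, named after its values were seen, had -0.43 ± 0.0463 for LETS1 over Co.vec with TGF-β and -0.44 ± 0.0468 in buffer. Genes of the laminin that binds that integrin were also in the list. LAMB3 had -0.68 ± 0.0518 for LETS1 over Co.vec with TGF-β and -0.66 ± 0.0545 in buffer, and LAMA3 had 0.40 ± 0.0709 with TGF-β and 0.50 ± 0.0682 in buffer.

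**Figure D4:**
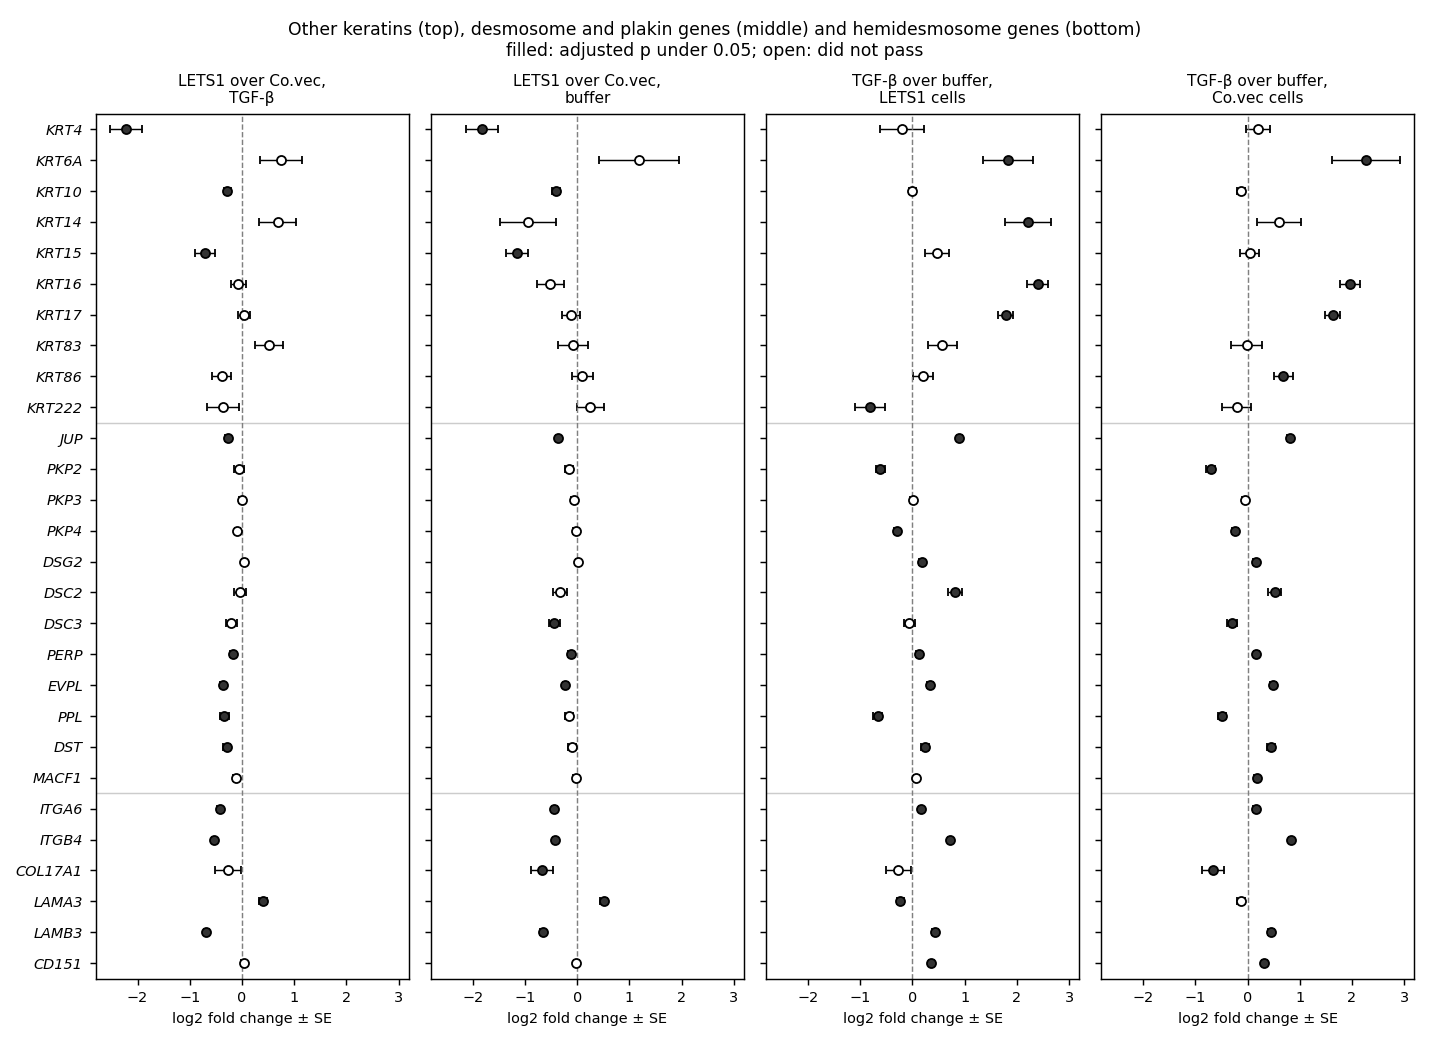
Fitted log2 fold change ± SE of 10 other keratins, 12 desmosome and plakin genes and 6 of the hemidesmosome genes (rows, top to bottom) in the 4 comparisons, on 1 shared horizontal scale; filled points had an adjusted p under 0.05. KRT4 lies at -2.22 and -1.82 in the LETS1 comparisons, and KRT16 at 2.40 and 1.96 in the TGF-β comparisons.

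Of 18 filament partners and modifiers, 17 were tested. Against Co.vec cells, 3 were higher and 1 lower in LETS1 cells under each treatment. With TGF-β against buffer, 6 were higher and 7 lower in LETS1 cells, where 19.7% of all genes were higher and 19.1% lower. In Co.vec cells 4 were higher and 5 lower, against 21.1% and 18.6% of all genes. The 7 became 4 without LETS1 buffer replicate 2. The gene lower in LETS1 than in Co.vec cells with TGF-β, PNN, was lost without LETS1 TGF-β replicate 1 (adjusted p 0.0910) or 2 (0.0797), or Co.vec TGF-β replicate 2 (0.167). The one lower in buffer, FAM83H, was lost without LETS1 buffer replicate 3 (0.0748) or Co.vec buffer replicate 2 (0.0679). KLHL24, a ubiquitin ligase adaptor that targets keratin 14 for turnover in skin, averaged 37.2 ± 1.87 CPM in LETS1 cells with TGF-β, 21.0 ± 2.37 in LETS1 cells in buffer, 38.7 ± 2.29 in Co.vec cells with TGF-β and 16.7 ± 1.18 in Co.vec cells in buffer (SD, n = 3 each). It rose with TGF-β by 0.82 ± 0.0723 on the log2 scale in LETS1 cells and by 1.21 ± 0.0747 in Co.vec cells. SFN, a 14-3-3 protein that binds keratins, rose by 0.73 ± 0.0537 in LETS1 cells and by 0.83 ± 0.0538 in Co.vec cells.

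Of 18 epithelial transcription factors, 13 were tested. Against Co.vec cells, 1 was higher and 4 lower in LETS1 cells with TGF-β, and 0 higher and 6 lower in buffer; DESeq2 also called 0 higher in buffer, where 0 had an unadjusted p under 0.05 in that direction. The 1 higher was HNF4A (0.19 ± 0.0569), lost without Co.vec TGF-β replicate 1 (adjusted p 0.205) or 2 (0.121) and without LETS1 TGF-β replicate 2 (0.0525) or 3 (0.0685). EHF, an ETS factor of epithelia, averaged 8.10 ± 0.137 CPM in LETS1 cells with TGF-β, 23.9 ± 1.15 in LETS1 cells in buffer, 18.3 ± 0.607 in Co.vec cells with TGF-β and 52.5 ± 2.01 in Co.vec cells in buffer (SD, n = 3 each). LETS1 over Co.vec gave EHF -1.17 ± 0.0825 with TGF-β and -1.14 ± 0.0605 in buffer. TGF-β over buffer gave it -1.56 ± 0.0789 in LETS1 cells and -1.52 ± 0.0632 in Co.vec cells. With TGF-β against buffer, 3 factors were higher and 4 lower in LETS1 cells, where 19.7% of all genes were higher and 19.1% lower. In Co.vec cells 4 were higher and 6 lower, against 21.1% and 18.6% of all genes. The factors that rose included HNF4A, by 1.22 ± 0.0603 in LETS1 cells and 0.98 ± 0.0606 in Co.vec cells.

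Of the 7 epithelial identity markers, 4 were tested. Relative to Co.vec cells, 0 were higher and 2 lower in LETS1 cells with TGF-β, and 0 higher and 1 lower in buffer; DESeq2 also called 0 higher, and 0 had an unadjusted p under 0.05 in that direction. With TGF-β 1 was higher and 2 lower in each population. CDH1, the E-cadherin gene, fell with TGF-β by 0.39 ± 0.0501 in LETS1 cells and by 0.43 ± 0.0504 in Co.vec cells. CLDN4, a tight junction gene, rose by 2.57 ± 0.0965 in LETS1 cells and by 2.36 ± 0.0902 in Co.vec cells. For LETS1 over Co.vec with TGF-β, CLDN4 had -0.27 ± 0.0750, which did not pass without Co.vec TGF-β replicate 1 (adjusted p 0.0947) or 2 (0.0602), or LETS1 TGF-β replicate 3 (0.0778). Of the 18 markers of other cell types, 6 were tested, with 2 higher and 2 lower for LETS1 over Co.vec with TGF-β, 3 higher and 1 lower in buffer, and 3 higher and 0 lower for TGF-β in each population. DESeq2 called 0 lower with TGF-β, and 1 marker in LETS1 cells and 0 in Co.vec cells had an unadjusted p under 0.05 in that direction. COL1A1 rose with TGF-β by 2.83 ± 0.0612 in LETS1 cells and by 3.24 ± 0.0655 in Co.vec cells.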

How the data were processed

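RNA of A549 cells was sequenced on a DNBSEQ platform in 12 libraries, per the labels. The deposited values are raw counts of fragments per gene. Per the submitters' processing notes, FastQC, cutadapt 2.10, STAR 2.7.5a and HTSeq 0.12.4 were used with GRCh38. The counting strand and the gene annotation release were not given in those notes or in the labels. Besides 60676 gene rows there were 5 rows of no gene, left out of library sizes, with 10.1% to 10.9% of fragments ambiguous between genes and 1.99% to 2.29% not uniquely aligned. Symbols came from a gene name table (60357 rows matched) and positions and transcript lengths from GENCODE 29.

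The filter on low counts (filterByExpr, edgeR 4.0.16, R 4.3.3) kept 16192 genes. After TMM scaling, all 12 libraries entered a robust quasi-likelihood fit with a mean for each group (common biological coefficient of variation 0.0413). There were 5 contrasts: LETS1 against Co.vec for each treatment, treatment against buffer for each vector, and the difference between the 2 responses to TGF-β, with Benjamini-Hochberg adjustment within each. A standard error was taken by dividing the absolute log2 fold change by the square root of F. The model was tested on simulated data with 200 changed genes. Replicate pairs of a group differed by more than counting error in all groups (chi-square per degree of freedom 2.16 to 5.24).

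The members and the 8 gene lists were chosen with earlier results of these data known. Genes named were all members, from each list a selection among the 2 largest rises and 2 largest falls that passed in each two-group contrast, the 3 genes nearest to KRT19, KRT20 and VIM, and KRT7-AS, VIM-AS1, KRT8P12, KRT86 and KRT83 for shared sequence; KRT8P3, TP63, KRT10, KRT17 and ITGA6 were added after their values were seen, as were the only genes behind some counts. Alternatives were DESeq2 1.42.0, RLE size factors, no filter, no robust dispersion, a replicate block, fits of the 6 libraries compared, pseudogene or paralog rows added to a member, and leaving out each library in turn. A few genes and sequences are not reported here.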

Additional observations from a re-analysis of the deposited data

Results flagged for a closer look

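The genes examined here were the members, the genes with the largest called changes in each list, and KRT7-AS. For 4 of them the response to TGF-β differed between LETS1 and Co.vec cells. This rests on a test of that difference itself (edgeR quasi-likelihood, Benjamini-Hochberg over 16192 genes), passed by 110 of all genes tested. KRT80 had a log2 difference of -0.38 (0.74 in LETS1 cells and 1.12 in Co.vec cells), and KRT7-AS had -0.81 (0.75 in LETS1 cells and 1.57 in Co.vec cells). ELF3, an epithelial ETS factor, had -0.66, with a fall of 1.87 in LETS1 cells and of 1.22 in Co.vec cells. COL1A1 had -0.40, with 2.83 in LETS1 cells and 3.24 in Co.vec cells, and its adjusted p of 0.0206 became 0.0639 without Co.vec buffer replicate 2, 0.218 without LETS1 buffer replicate 3 and 0.0590 without LETS1 TGF-β replicate 3. For KRT80, KRT7-AS and COL1A1 the LETS1 level in buffer was above the Co.vec level in buffer. Over all genes, the difference that passed was positive in 13 and negative in 97. A negative difference can be a smaller rise, as for KRT80, or a larger fall, as for ELF3.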

How the results depend on the processing

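RLE size factors, no robust dispersion, a replicate block, fits of the 6 libraries compared, and no filter on low counts changed no call of the 10 members. Nor did pseudogene or paralog rows added to a member, which were too small to be likely to change one. With DESeq2, 2 members were higher in LETS1 than in Co.vec cells with TGF-β, against 1. In Co.vec cells DESeq2 called 6 members higher with TGF-β than in buffer, against 7. Genes with a positive difference between responses (LETS1 minus Co.vec) numbered 28 with no filter, against 13, and 8 to 21 with a library left out. With a library left out, members lower with TGF-β numbered 0 to 1 in LETS1 cells, against 0, and 0 to 2 in Co.vec cells, against 1. Those higher with TGF-β in Co.vec cells then numbered 5 to 7, against 7. For LETS1 over Co.vec in buffer, 4 to 6 members were lower, against 6, and 2 to 3 higher, against 2.

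Signs turned in 11 fits of log2 values that had not passed. With no filter, KRT19 for TGF-β in LETS1 cells gave 0.0137. With a library left out, KRT19 there ran from -0.0444 to 0.0295, and DSP from -0.0144 to 0.0286. For LETS1 with TGF-β, KRT80 ran from -0.0498 to 0.0423, KRT81 from -0.0873 to 0.0047 and PLEC from -0.0404 to 0.0210. PLEC for LETS1 in buffer ran from -0.0047 to 0.0770, and the KRT20 difference between responses from -0.538 to 0.0046. The cause was not tested.

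Same-numbered replicates did not deviate together across groups (0 of 18 pairs over 0.1, r from -0.06 to 0.05), so they were treated as unpaired. With the replicate block, 1309 genes were higher and 988 lower for LETS1 in buffer, against 1387 and 1062 without it.

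Among the lists, small counts moved under some settings. Hemidesmosome genes higher in LETS1 cells numbered 2, against 1, with TGF-β under no filter and the block, and in buffer under 5 settings (no filter, replicate block, no robust dispersion, 6 libraries, DESeq2). Other intermediate filament genes higher in LETS1 cells with TGF-β numbered 1, against 2, with 6 libraries and DESeq2; those lower with TGF-β in Co.vec cells numbered 1, against 2, with no filter, the block, 6 libraries and DESeq2; and those higher with TGF-β in LETS1 cells numbered 2, against 1, with RLE, no filter and 6 libraries. Markers of other cell types lower in LETS1 cells with TGF-β numbered 1, against 2, with no filter and DESeq2. With a library left out, the markers of other cell types lower in LETS1 cells with TGF-β numbered 1 in 9 of 12 fits, and those higher numbered 1, against 2, without Co.vec TGF-β replicate 1 or LETS1 TGF-β replicate 1 or 2. Hemidesmosome genes higher in LETS1 cells numbered 2, against 1, without Co.vec TGF-β replicate 1 for either treatment, or 3 in buffer. Other keratins higher in LETS1 cells with TGF-β numbered 1, against 0, without Co.vec TGF-β replicate 1. Filament partners with a negative difference between responses numbered 1, against 0, with no filter. Depth limits genes of few counts, such as KRT20 with 6 to 21 counts per LETS1 library.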
